A study of Mus musculus with 12 samples.

Results

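A set of 9 genes that move or store cholesterol and other lipids was followed across the leukocytes of the neonatal mouse meninges: Apoe, Abca1, Abcg1, Pltp, Lpl, Lipg, Soat1, Soat2 and Plin2. They were chosen by symbol for their function, and 9 of the 9 had a row among the 28694 gene rows of the expression matrices. The samples were meninges, the membranes around the brain, of C57Bl/6j pups at postnatal day 4, in 2 groups: naive pups, and pups sampled 6 h after an episode of hypoxia-ischemia (HI), an injury from too little blood flow and oxygen that is used to study damage to the newborn brain. Single cells were captured in droplets and read from the 5' end of each transcript. There were 2 naive and 2 HI libraries, each from 12 pooled pups of which 6 were male. No sham group was among the samples used, so surgery and handling that accompany HI cannot be told apart from HI itself. A pool is the unit of replication, and animals within it cannot be separated.

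Cholesterol cannot be broken down by most cells, so it is stored as esters or handed to lipoprotein particles. Apoe is the main apolipoprotein of such particles in the brain. Abca1 and Abcg1 are membrane transporters that load cholesterol onto particles, and both are classic targets of the liver X receptors (LXR), nuclear receptors that sense oxidised cholesterol. Pltp moves phospholipids between particles, and Lpl and Lipg are lipases that act on their lipids at the cell surface. Soat1 and Soat2 esterify cholesterol for storage, and Plin2 coats the lipid droplets in which esters are kept. Macrophages that take up dying cells or myelin are known for using this machinery.

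The libraries held 4213 to 6421 barcodes and 51986763 to 68543046 UMIs (unique molecular identifiers, which count transcripts), and pairs of libraries shared 29 to 55 barcode sequences. After filters on quality and doublets, 4070 to 6081 cells a library were kept, with medians of 9574 to 11091 UMIs. Cells were assigned to a class when at least 3 of its 6 marker genes had a UMI and no other class came close, and 3677 to 5468 cells a library were assigned. Border-associated macrophages, the resident macrophages of the brain's surfaces, gave 2807 to 4242 cells a library, microglia 476 to 666 and non-classical monocytes 145 to 378. Smaller classes were neutrophils with 28 to 145 cells, classical monocytes with 24 to 37, B cells with 28 to 89 and T or innate lymphoid cells with 35 to 65. Each of these classes carried at least 5 of its 6 markers in 20% or more of its cells. Levels are CPM, the UMIs of a gene scaled to a common total of all UMIs of the class in a library, and the text gives them in the order naive 1, naive 2, HI 1, HI 2.

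Of the promoters in the RefSeq table for build GRCm38.p6, that of Abca1 is shown because it carries a sequence of the type that LXR binds, and Abca1 is followed below beside Abcg1. Apoe, Pltp and Lpl are known LXR targets as well. The 120 bases before its start lie on the minus strand. Capitals mark a match to the LXR direct repeat, 67 to 53 bases before the start. The RefSeq span of the gene, 53030789 to 53159988, reaches past this start, so the marked match lies inside that span.
Abca1 (chr4:53159896-53160015): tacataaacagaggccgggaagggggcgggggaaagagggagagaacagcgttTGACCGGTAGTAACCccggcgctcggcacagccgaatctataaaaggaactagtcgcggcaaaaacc
The search was for GGTNA, then NNNNN, then GGTNA, where N is any base, on both strands of the 250 bases before each start. It matched 204 of 32851 promoters (0.621%), and among the 7 entries for 5 members it matched that of Abca1 alone. Entries were found for Apoe, with 3 starts, Abca1, Pltp, Soat1 and Plin2. A match describes the letters and is not evidence of binding.

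Apoe transcripts were most abundant in border-associated macrophages, at 18742, 16144, 17213 and 15943 CPM. Microglia followed at 14925, 13283, 11322 and 10783 CPM. Classical monocytes held 2319 to 5852 CPM and non-classical monocytes 1076 to 1350 CPM. In the 3 lymphocyte and neutrophil classes Apoe reached 0.0862% to 1.97% of the macrophage level of the same library, against 0% to 2.97% for C1qa, a complement gene that these cells should lack. Over all cells kept, 77.2% of Apoe UMIs lay in border-associated macrophages, which were 66.6% of the cells, and 11.5% in microglia.

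After HI, Apoe fell in microglia, where both HI libraries lay below both naive libraries. The summed microglia markers that gate the class were also lower in the same cells, at 8421 and 8580 CPM in the naive and 6034 and 7320 CPM in the HI libraries, and their part in the Apoe change was not tested. The log2 change was -0.37 ± 0.07 (SE; adjusted p = 0.0404, edgeR quasi-likelihood test over all genes of the class). It was the single member of 7 tested to pass in microglia, where 0.821% of all genes did and 0.433% were lower. Among microglia outside the Gpnmb program (defined below), Apoe went from 11669 and 10636 to 9156 and 9082 CPM, and inside it from 21027 and 17900 to 16134 and 16225 CPM. Without the Gpnmb-program cells the change in microglia was -0.29 (adjusted p = 0.0506), and without naive 1 or naive 2 it was -0.29 and -0.45 (adjusted p = 0.304 and 0.275). In border-associated macrophages the libraries of the groups overlapped (log2 change -0.06 ± 0.09; adjusted p = 0.731). The difference between the responses of these classes was 0.33 on the log2 scale (adjusted p = 0.00406), and 1.02% of all genes passed that test. It missed the threshold without naive 1 (adjusted p = 0.658) and without naive 2 (adjusted p = 0.258).

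Abca1 and Abcg1, the cholesterol exporters, were both high in microglia and differed in order between border-associated macrophages and non-classical monocytes. Abca1 stood at 311, 280, 328 and 283 CPM in border-associated macrophages and at 296, 256, 252 and 224 CPM in microglia. It was at 17.5 to 26.6 CPM in non-classical monocytes. Abcg1 stood at 78.3, 72.2, 75.7 and 69.9 CPM in microglia and at 68.4, 56.3, 61.3 and 47.1 CPM in non-classical monocytes. In border-associated macrophages Abcg1 was at 8.25, 7.45, 15.1 and 11.0 CPM, below the other 2 classes in every library. Microglia held 44.6% of the Abcg1 UMIs from 11.1% of the cells.

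Abcg1 rose after HI in border-associated macrophages, and both HI libraries lay above both naive libraries. The share of these cells with at least 1 Abcg1 UMI was 7.36% and 6.75% in the naive libraries and 14.3% and 9.15% in the HI libraries. With each cell thinned to 3000 UMIs it was 1.76% and 2.30% against 3.95% and 3.21%. The log2 change in CPM was 0.74 ± 0.15 (adjusted p = 0.0443, edgeR). Of 8 members tested in this class, Abcg1 and Soat2 were called higher and none lower. Of all genes, 4.1% were called in either direction and 2.39% higher. Soat2 passed the low-count filter only through the HI libraries, where it was high. Abca1 did not pass (0.06 ± 0.08; adjusted p = 0.708).

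Abcg1 did not pass in microglia (-0.07 ± 0.09; adjusted p = 0.769) or in non-classical monocytes (-0.26 ± 0.17; adjusted p = 0.637). The response of macrophages exceeded that of microglia by 0.81 (adjusted p = 0.0158) and that of non-classical monocytes by 0.95 (adjusted p = 0.00384), tests that 1.02% and 2.16% of all genes passed. The first was 0.80 without naive 1 (adjusted p = 0.494) and 0.66 without cells that carried markers of other tissues (adjusted p = 0.0693). The other missed the threshold without naive 1, naive 2 or HI 1 (adjusted p = 0.135, 0.0939 and 0.0948). Summed CPM of neuron markers in the macrophages went from 35.3 and 32.8 in the naive libraries to 10.2 and 15.2 in the HI libraries, choroid plexus markers from 110 and 41.9 to 5.38 and 3.06, and astroglia markers from 837 and 741 to 650 and 589. The most common astroglia marker had a UMI in 93.9% of these macrophages, and 2 of the 6 were in 20% or more. The astroglia sum therefore cannot be read as RNA of other tissues alone. The part of these markers in the Abcg1 change was not tested beyond the fit that follows. Cells with 2 or more markers of neurons, astroglia or choroid plexus numbered 1382 of 3015 and 1544 of 3733 in the naive libraries. They numbered 637 of 2807 and 1126 of 4242 in the HI libraries. As 2 astroglia markers were enough for this count, these cells cannot be read as cells with RNA of other tissues alone. The same cells were left out for the 0.66 above. Without these cells, called cells with other RNA below, the Abcg1 change was 0.63 (adjusted p = 0.0729, edgeR). It was 0.82 without naive 1 and 0.67 without naive 2 (adjusted p = 0.0993 and 0.245).

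**Figure D1:**
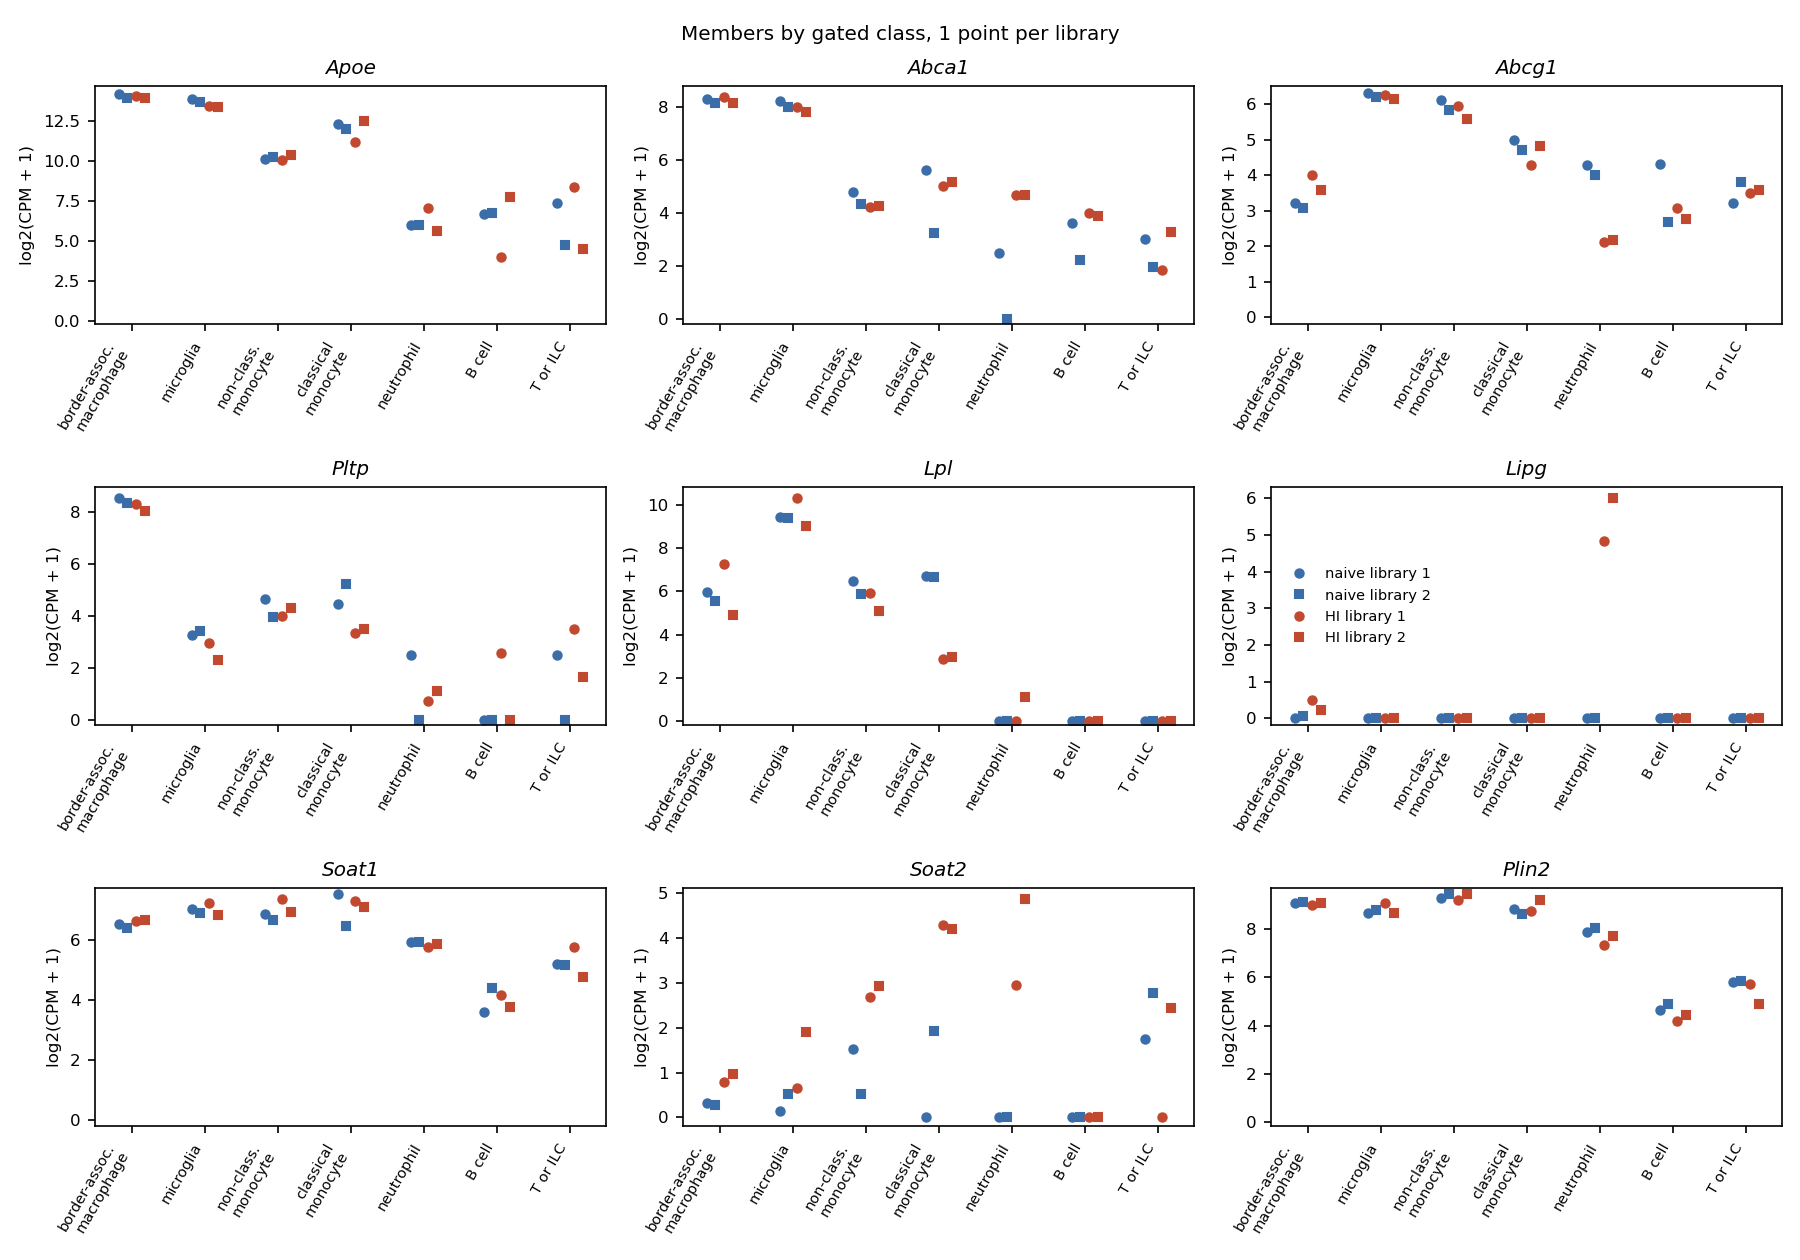
Levels of the 9 genes in 7 gated classes, as log2(CPM + 1) of the UMIs summed over the class, with 1 point per library (blue naive, red HI; circles library 1, squares library 2). Pltp is high in border-associated macrophages, Lpl in microglia, and the Lipg points above 0 are HI neutrophils and a few macrophages.

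Pltp was the member most concentrated in macrophages: border-associated macrophages held 90.1% of its 54683 UMIs. Its level there was 373, 330, 320 and 264 CPM, against 4.02 to 9.82 CPM in microglia. The 18 gated fibroblasts, 0.0869% of the cells, held 404 Pltp UMIs. Both HI libraries lay below both naive libraries in macrophages, but the change did not pass (-0.25 ± 0.09; adjusted p = 0.175), and it passed without HI 1 (-0.38; adjusted p = 0.000649). In microglia the change was -0.79 ± 0.26 (adjusted p = 0.180), with few UMIs behind it (78 and 68 in the naive libraries, 48 and 32 in the HI libraries).

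Lpl, which splits triglycerides of lipoproteins, was highest in microglia, which held 60.1% of its UMIs. Its level in microglia was 701, 679, 1264 and 511 CPM, so that HI 1 was the highest library and HI 2 the lowest. The same order held in border-associated macrophages, at 61.8, 46.5, 153 and 28.8 CPM. Cells with 10 or more Lpl UMIs were 1.29% and 0.911% of macrophages in the naive libraries, 5.38% in HI 1 and 0.566% in HI 2. The top 5% of macrophages by Lpl held 52.7% to 83.7% of its UMIs in a library.

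The Lpl change over both HI libraries was 0.74 ± 0.62 in macrophages (adjusted p = 0.532) and 0.34 ± 0.30 in microglia (adjusted p = 0.632). Its direction depended on the library: without HI 1 it was -0.87 in macrophages and -0.45 in microglia, and without HI 2 it was 1.49 and 0.84, each past the threshold. The libraries differed in the same way in microglia outside the Gpnmb program (499, 451, 1134 and 345 CPM). Plin2 was also highest in HI 1 among those microglia (321, 317, 479 and 329 CPM), as was Soat1 (85.5, 79.3, 112 and 85.1 CPM).

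In classical monocytes Lpl was lower after HI. Classical monocytes held 43 and 36 Lpl UMIs in the naive libraries (102.5 and 101.6 CPM) and 2 UMIs in each HI library (6.20 and 6.90 CPM), from 37, 34, 24 and 31 cells. The naive UMIs came from 11 of 37 and 9 of 34 cells, with up to 13 and 10 in 1 cell. The fitted log2 change was -3.90 ± 0.42 (adjusted p = 0.0178, edgeR). Lpl passed the low-count filter only through the naive libraries, where it was high, so the call is not separate support for a fall. This class was fitted after its values were seen, and 0.314% of its 4460 genes passed. Summed neutrophil markers in these cells were at 999, 1476, 20819 and 2044 CPM, so HI 1 stood apart. Macrophage markers went from 568 and 499.7 to 946 and 946 CPM. Only 1 of the 6 macrophage markers had a UMI in 20% or more of classical monocytes, at 79.4%, and the median was 5.16%. The macrophage sum therefore cannot be read as RNA of macrophages alone. The part of these markers in the Lpl change was not tested beyond the fits that leave out a library: without HI 1 the change was -3.82 (adjusted p = 0.00533). Without each library in turn the change was -3.93 to -3.82. In non-classical monocytes Lpl was at 88.0, 58.0, 59.1 and 32.7 CPM with overlap between the groups, and did not pass (-0.78 ± 0.23; adjusted p = 0.115). A single cell held 65 of the 139 Lpl UMIs of naive 1. Without that cell naive 1 was at 47.4 CPM and the change was -0.36 (adjusted p = 0.589), a fit added after the values were seen. In that class 2 of 7 members had an unadjusted p under 0.05, 0 passed after adjustment by edgeR or DESeq2, and 1.69% of all genes passed. C1qb, one of the genes used to gauge free RNA, rose there by 1.86 (adjusted p = 4.44e-05), while Apoe, with a change of 0.01, did not pass (adjusted p = 0.988).

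The Lpl response of macrophages exceeded that of non-classical monocytes by 1.15 on the log2 scale (adjusted p = 7.17e-09), in the test that 2.16% of all genes passed. Without HI 1 this difference was 0.27 (adjusted p = 0.820), and without the single naive 1 monocyte with 65 Lpl UMIs it was 0.75 (adjusted p = 0.00262). The Lpl response of microglia exceeded that of non-classical monocytes by 0.91 (adjusted p = 0.0473), against 0.409% of all genes, and it was 0.68 without HI 1 (adjusted p = 0.117) and 0.65 without naive 1 (adjusted p = 0.561). Without that monocyte it was 0.49 (adjusted p = 0.384).

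**Figure D2:**
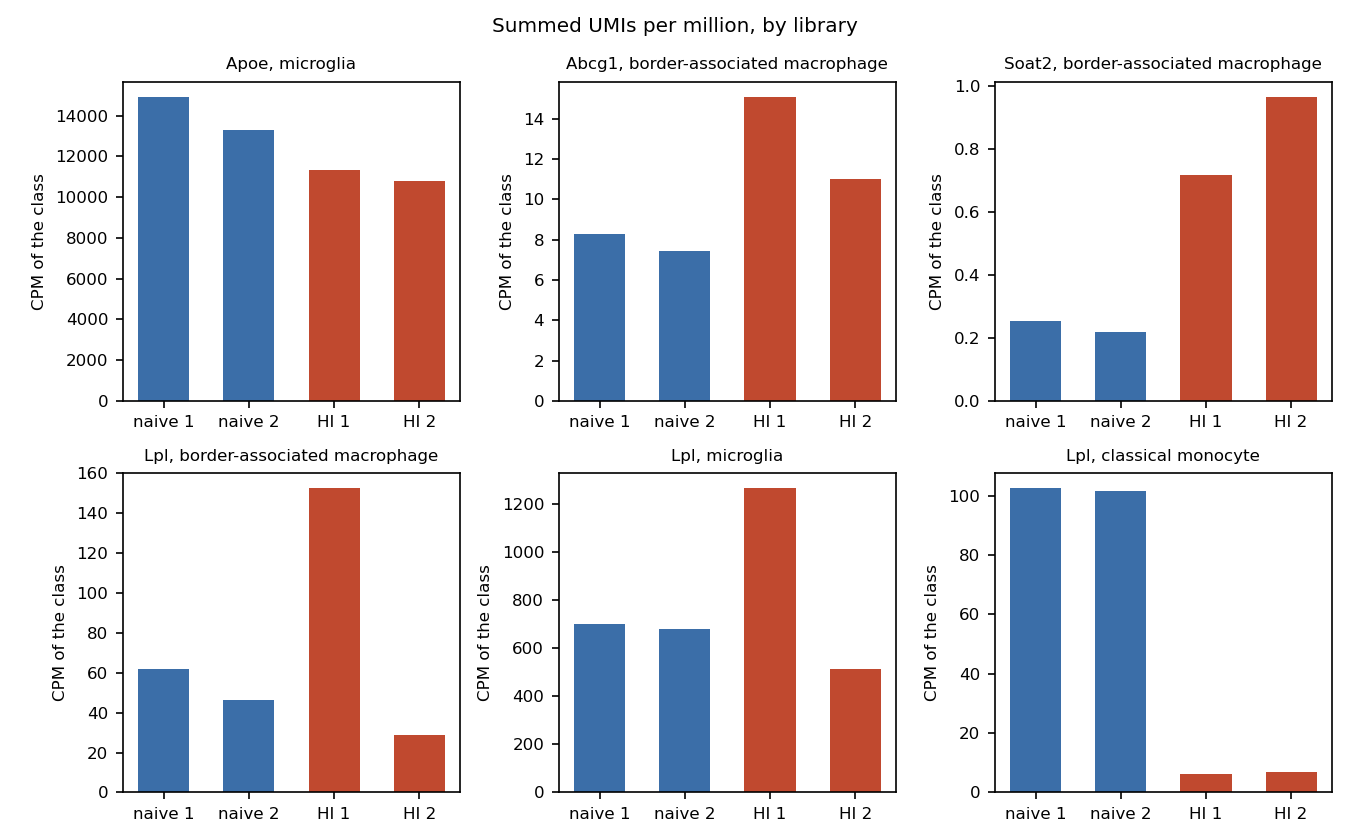
CPM of 4 members in the classes named above each panel, 1 bar per library (blue naive, red HI). Apoe in microglia, Abcg1 and Soat2 in macrophages and Lpl in classical monocytes separate the groups, while Lpl in macrophages and microglia is highest in HI 1 and lowest in HI 2.

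Lipg, the endothelial lipase, was detected in HI neutrophils and almost nowhere else among the cells kept. No cell was gated as endothelial in any library. HI neutrophils held 41 and 54 of its 118 UMIs (27.7 and 63.5 CPM), in 13.1% and 22.5% of their cells. The 28 and 58 naive neutrophils held 0. The floor was 3 counts over the 615443 summed UMIs of the naive neutrophils. Against it, the summed level after HI (40.7 CPM) was at least 8.36-fold higher. That bound sums the libraries of each group and need not hold between single libraries. In single libraries the floor was 13.9 CPM in naive 1 and 7.50 CPM in naive 2, below both HI libraries. By library, the 95% exact upper limit on the share of cells was 12.3% in naive 1 and 6.16% in naive 2. The exact intervals were 8.08% to 19.7% in HI 1 and 15.1% to 31.4% in HI 2. The naive 1 limit lay inside the HI 1 interval. These intervals cover counting error only. The other 23 UMIs lay in 5 macrophages, 14 of them in 1 cell. No UMI was seen in microglia, monocytes or lymphocytes. The edgeR test in neutrophils, added after the values were seen, called 0 of 4278 genes (373 at an unadjusted p under 0.05; DESeq2 called 38), and the Lipg adjusted p was 0.254.

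Neutrophils after HI also carried Soat2 and Abca1. Soat2 had 0 UMIs in both naive libraries and 10 and 24 in the HI libraries. Summed over the libraries of each group, this was at least 2.99-fold higher by the same floor. That bound does not hold by library. The floor was 13.9 CPM in naive 1 and 7.50 CPM in naive 2. HI 1, at 6.75 CPM, lay below both floors, and HI 2 was at 28.2 CPM. Abca1 had 1 and 0 UMIs in the naive libraries and 36 and 21 in the HI libraries (24.3 and 24.7 CPM; adjusted p = 0.320). Abcg1 went the other way in level, at 18.6 and 15.0 CPM against 3.37 and 3.53 CPM, from 3 to 6 UMIs a library, and was too sparse for the test. Neutrophils were deeper after HI, with medians of 8460 and 6362 UMIs against 5021 and 4664. Summed CPM of the granule genes Ngp, Camp, Ltf and Chil3, which mark younger neutrophils, was 51179 and 56792 in the naive libraries. It was 75943 and 27074 in the HI libraries, which lay on both sides. The share of cells with a UMI of these genes was 86.9% and 80.2% in the HI libraries. It was at most 64.3% in the naive libraries. Summed CPM of Cxcr2, Csf3r, Il1b and Ccl6, which mark mature neutrophils, was 2486.6 and 3093.4 in the naive libraries. It was 2328.5 and 2088.6 in the HI libraries, both below the naive libraries. The part of depth or maturity in the Lipg, Soat2, Abca1 and Abcg1 differences was not tested.

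**Figure D3:**
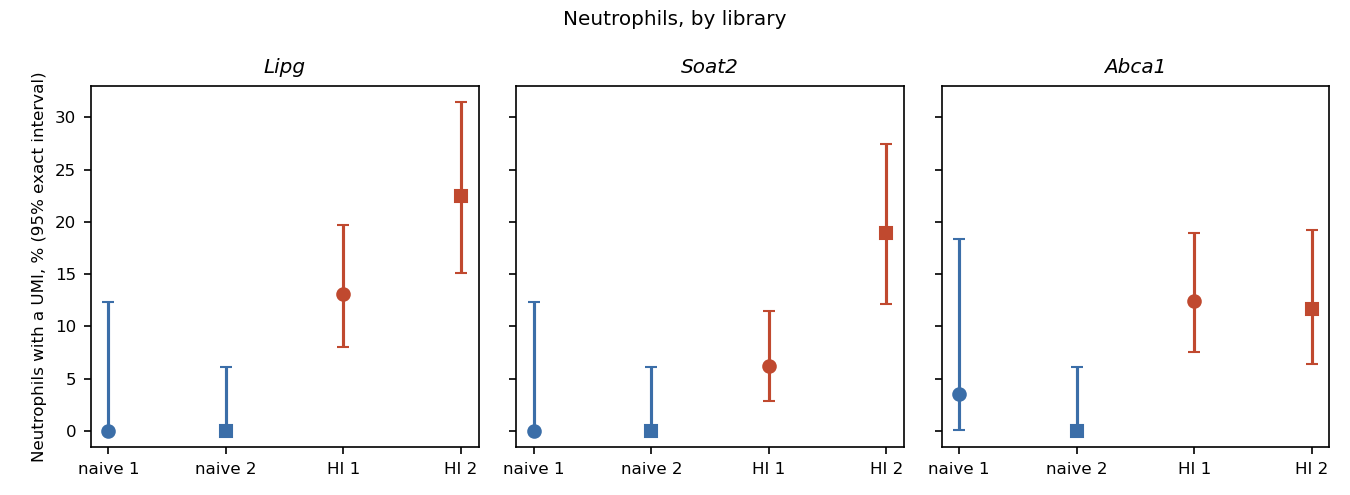
Share of gated neutrophils with at least 1 UMI of Lipg, Soat2 or Abca1, in percent, by library, with 95% exact binomial intervals for counting error. Both HI libraries lie above both naive libraries for each gene, and the naive intervals are wide because they rest on 28 and 58 cells.

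Soat1, the esterifying enzyme that macrophages use most, was present in every myeloid class: 84.3 to 101 CPM in border-associated macrophages, 113 to 149 CPM in microglia and 102 to 165 CPM in non-classical monocytes. In macrophages it was at 92.4, 84.3, 98.9 and 101 CPM, both HI libraries being higher, and did not pass (0.19 ± 0.06; adjusted p = 0.141). In non-classical monocytes it was at 117, 102, 165 and 122 CPM and did not pass either (0.33 ± 0.14; adjusted p = 0.372).

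Soat2, the second esterifying enzyme, was rare, with 255 UMIs in all cells kept. In border-associated macrophages it had 9, 9, 24 and 43 UMIs, or 0.253, 0.220, 0.717 and 0.966 CPM. Its naive levels lay below the low-count filter, so Soat2 entered the test only through the HI libraries, where it was high. A call on such terms is not separate support for a rise. The change was 1.85 ± 0.36 on the log2 scale (adjusted p = 0.0388, edgeR). It did not pass with DESeq2 (adjusted p = 0.114), without naive 1, naive 2 or HI 2 (adjusted p = 0.158, 0.261 and 0.0708) or without cells with other markers (1.35; adjusted p = 0.118). Soat2 was too sparse for the test in the other classes, where its UMIs were 1, 3, 4 and 22 in microglia, 3, 1, 5 and 12 in non-classical monocytes, and 0, 1, 6 and 5 in classical monocytes.

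Soat2 lies next to Igfbp6, a gene for a binding protein of insulin-like growth factors, on chromosome 15: Igfbp6 spans 102144186 to 102149512 and Soat2 spans 102150415 to 102163469 (GRCm38.p6), with 902 bases between them. This neighbour was looked up after the Soat2 values were seen. Igfbp6 rose after HI by 2.01 in macrophages (adjusted p = 0.00386, edgeR). It was higher by 2.69 in microglia (adjusted p = 0.0207) and by 4.61 in non-classical monocytes (adjusted p = 9.76e-05). The naive libraries held 8 and 7 Igfbp6 UMIs in microglia and 1 and 3 in non-classical monocytes. In those 2 classes Igfbp6 passed the low-count filter only through the HI libraries, so these calls are not separate support for a rise. In HI 1 and HI 2 Igfbp6 reached 66.8 and 101 CPM in neutrophils and 127 and 138 CPM in classical monocytes. Among HI 2 neutrophils, 14 of 21 with Soat2 also had Igfbp6 (66.7%; exact interval 43.0% to 85.4%), against 32 of the other 90 (35.6%). Among HI 1 neutrophils it was 3 of 9 (33.3%; 7.49% to 70.1%) against 33 of 136 (24.3%). In HI 2 macrophages it was 5 of 43 (11.6%; 3.89% to 25.1%) against 5.19% of the rest, in HI 1 it was 1 of 23 (4.35%; 0.11% to 21.9%) against 6.07%, and in each naive library 0 of 9. Whether reads of one gene were assigned to the other was not tested.

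Plin2, the droplet coat, was detected in every class described. It stood at 541, 558, 522 and 555 CPM in border-associated macrophages, at 632, 700, 600 and 704 CPM in non-classical monocytes and at 411, 451, 544 and 407 CPM in microglia. Neutrophils held 165 to 268 CPM and B cells 17.3 to 28.4 CPM. No change passed: -0.01 ± 0.06 in macrophages (adjusted p = 0.925), 0.12 ± 0.12 in microglia (adjusted p = 0.691) and -0.06 ± 0.10 in non-classical monocytes (adjusted p = 0.898).

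**Figure D4:**
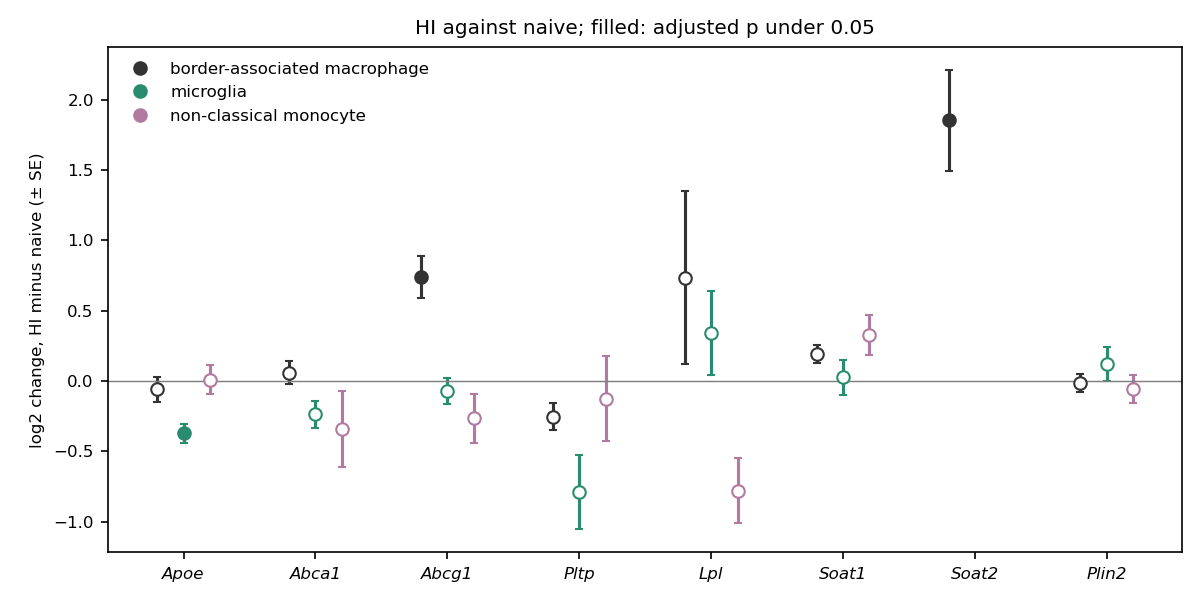
Log2 change after HI with its standard error for 8 members in 3 classes, from edgeR on UMIs summed per library. Filled points passed the adjusted p of 0.05: Abcg1 and Soat2 in border-associated macrophages and Apoe in microglia. Soat2 passed the low-count filter only through the HI libraries, where it was high.

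Between classes, most members differed in level, as did most genes. Of 8 members tested, 7 differed between border-associated macrophages and microglia, where 70.4% of all genes did. Macrophages were higher in Pltp (5.45 ± 0.11 on the log2 scale), Apoe (0.43), Plin2 (0.26) and Abca1 (0.22), and lower in Lpl (-3.65 ± 0.16), Abcg1 (-2.87 ± 0.15) and Soat1 (-0.46). Against non-classical monocytes 7 of 8 differed, where 71.6% of all genes did. Macrophages were higher there in Pltp (4.02), Abca1 (3.74) and Apoe (3.72), and lower in Soat2 (-2.73), Abcg1 (-2.65), Soat1 (-0.50) and Plin2 (-0.38). Microglia differed from non-classical monocytes in 6 of 7 members, against 75.1% of all genes, with Lpl (3.53), Abca1 (3.52) and Apoe (3.25) the largest. Soat1 did not pass between those 2 classes (-0.09 ± 0.09; adjusted p = 0.368).

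A subset of microglia was set apart by at least 2 of Gpnmb, Itgax and Igf1, genes of a phagocytic program of the developing brain, and none of the members entered that definition. It made up 22.2%, 24.5%, 21.8% and 14.2% of microglia. All 7 members tested were higher in it than in the other microglia, against 20.1% of all genes called higher. The differences were 1.49 ± 0.06 for Soat1, 1.34 ± 0.11 for Lpl, 1.20 ± 0.24 for Pltp, 1.12 ± 0.06 for Plin2, 1.06 ± 0.03 for Apoe, 0.46 ± 0.05 for Abca1 and 0.36 ± 0.08 for Abcg1 (largest adjusted p = 0.00195, edgeR with a term per library). Soat1 stood at 220, 192, 232 and 202 CPM in the subset and at 85.5, 79.3, 112 and 85.1 CPM in the rest, so the levels did not overlap. Lpl stood at 1082, 1078, 1552 and 1043 CPM against 499, 451, 1134 and 345 CPM. Abcg1 was the exception in 1 library, at 68.4 CPM in the subset and 79.0 CPM in the rest of HI 1.

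Subset cells were deeper, with medians of 18698 to 19623 UMIs against 10045 to 11295. With both sides limited to cells of 12000 to 24000 UMIs, a limit added after the depths were seen, the 7 members stayed past the threshold in the same direction, with Apoe at 1.19, Soat1 at 1.29, Lpl at 0.86, Abca1 at 0.85 and Plin2 at 0.77. In cells thinned to 3000 UMIs, Plin2 was seen in 78.4% to 81.7% of the subset and 46.7% to 57.3% of the rest. The comparator C1qb did not pass over all depths (0.04; adjusted p = 0.378) and was higher in the subset within the depth limit (0.20; adjusted p = 0.0149), and Tyrobp was higher over all depths (0.80).

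**Figure D5:**
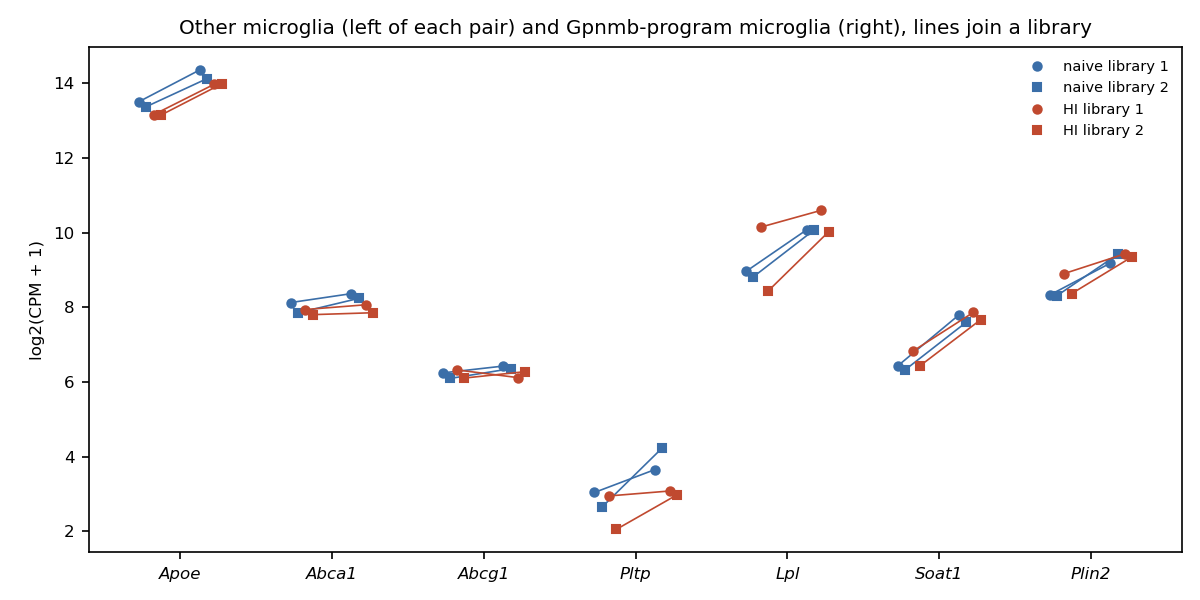
Level of 7 members, as log2(CPM + 1), in other microglia and in Gpnmb-program microglia, with a line joining the values of each library (blue naive, red HI; circles library 1, squares library 2). Lines rise for every gene and library except Abcg1 in HI 1.

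Among border-associated macrophages, 94.8% to 97.5% had a UMI of Lyve1, a receptor that marks perivascular and meningeal macrophages. Compared with the rest of the class, Lyve1 positive cells had more Pltp (0.45 ± 0.06) and Plin2 (0.25 ± 0.05), and less Lpl (-1.42 ± 0.22), Abcg1 (-1.33 ± 0.19), Soat1 (-0.33 ± 0.08) and Abca1 (-0.31 ± 0.07). These were 6 of 8 members, against 8.6% of all genes. Among cells of 12000 to 24000 UMIs, Lpl alone still passed (-1.77; adjusted p = 0.000486), with 15 to 33 Lyve1 negative cells a library. After HI, Abcg1 was higher in Lyve1 positive cells by 0.80 ± 0.16 (adjusted p = 0.0416, edgeR) and Soat2 by 1.90 ± 0.37 (adjusted p = 0.0393). These 2 of 8 members passed, against 4.26% of all genes. Soat2 again passed the low-count filter only through the HI libraries. The Abcg1 calls ended without naive 1 or naive 2 (adjusted p = 0.0831 and 0.0663), as did those of Soat2 (adjusted p = 0.146 and 0.145). In Lyve1 negative cells, 103 to 157 a library, Abcg1 stood at 22.8, 20.8, 21.9 and 33.0 CPM (0.33 ± 0.30; adjusted p = 0.843). There edgeR called 0 of 7 members (1 at an unadjusted p under 0.05; DESeq2 called 0), against 0.459% of all genes, and the difference between the 2 subsets in response was not tested.

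Dividing macrophages, with at least 3 of 5 cell cycle genes, were 4.13% to 6.91% of the class. They held less Abca1 (-0.61 ± 0.04), Pltp (-0.53 ± 0.04), Soat1 (-0.48 ± 0.05) and Apoe (-0.37 ± 0.02) than the other macrophages. In every library Abca1 was lower in dividing cells (198, 194, 231 and 203 CPM) than in the rest (322, 289, 333 and 289 CPM). Lpl was called higher (0.15; adjusted p = 0.0485), but among cells of 12000 to 24000 UMIs it was -0.19 (adjusted p = 0.182). In total 5 of 7 members passed, against 48.6% of all genes.

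Of the wider lipid pathways, 4 lists were read against the 4.1% of all genes called in macrophages by edgeR, 2.39% higher. Of 18 LXR and cholesterol efflux genes tested in macrophages 0 passed (8 at an unadjusted p under 0.05; DESeq2 called 2), and their median log2 change was 0.04 against 0.00 for all genes. Of 24 sterol synthesis genes 0 passed (2 unadjusted; DESeq2 called 0; median -0.08), and of 19 genes of lipid droplets, lipases and fatty acid handling 0 passed (6 unadjusted; DESeq2 called 0; median 0.05). Of 13 lipoprotein receptors and lipid uptake genes 2 rose and 0 fell (median 0.08). Msr1, a scavenger receptor for modified lipoproteins, went from 84.3 and 80.7 to 130 and 113 CPM (0.57 ± 0.07; adjusted p = 0.0102). Sorl1, a sorting receptor that binds Apoe-bearing particles, went from 0.898 and 0.833 to 2.60 and 2.43 CPM (1.55 ± 0.21; adjusted p = 0.0144). Sorl1 missed the threshold without naive 1 and without naive 2 (adjusted p = 0.0557 and 0.116), and Msr1 without naive 2 (adjusted p = 0.101).

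In microglia Lipa, the lysosomal lipase that frees cholesterol from its esters, fell and was the single LXR and efflux gene of 16 to pass, against 0.821% of all genes. It went from 238 and 236 to 184 and 167 CPM (-0.46 ± 0.08; adjusted p = 0.0409), and missed the threshold without naive 1 or naive 2 (adjusted p = 0.309 and 0.439). That list's median change was -0.16, and that of the 24 sterol synthesis genes was -0.20 (0 passed, 7 unadjusted, DESeq2 0). Of 9 receptors and 17 droplet genes 0 passed (5 unadjusted in each; DESeq2 0), with medians of -0.15 and -0.06. In non-classical monocytes, where 1.69% of all genes passed, 1 of 17 LXR and efflux genes, 1 of 10 receptors and 2 of 14 droplet genes passed, and these 4 are named after their values were seen. Lipa fell from 215 and 217 to 151 and 139 CPM (-0.62 ± 0.11; adjusted p = 0.00602). Trem2, a lipid-sensing receptor, went from 74.7 and 69.8 to 44.9 and 41.6 CPM and fell by 0.78 (adjusted p = 0.0139). G0s2, an inhibitor of triglyceride lipase, fell by 0.59 (adjusted p = 0.0187). Fabp5, a fatty acid carrier, rose from 234 and 290 to 451 and 470 CPM (0.78 ± 0.12; adjusted p = 0.000925). Of 13 sterol synthesis genes in that class 0 passed (1 unadjusted; DESeq2 0). Trem2 missed the threshold without HI 2 (adjusted p = 0.104), and G0s2 without naive 2 or HI 2 (adjusted p = 0.105 and 0.186).

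The genes whose mean level over 7 classes was most like that of a member are given as a description, over 10080 genes ranked by Pearson correlation of log2(CPM + 1). For Lpl they were Cx3cr1 (r = 0.984), the fractalkine receptor of microglia and monocytes, Ncln and Gm15537. For Pltp they were Slc48a1 (r = 0.990), a heme transporter, Ap2a2 and Siglec1, a macrophage lectin. For Abcg1 they were Fabp5 (r = 0.987), Lair1 and 2610528A11Rik. For Apoe they were Gm20703 (r = 0.997), Sulf2 and Depdc7, and for Abca1 they were Retsat (r = 0.992), Tmem87b and Idua. For Soat1 they were Asap1 (r = 0.979), 9030617O03Rik and Nfic, and for Plin2 they were Ctbp2 (r = 0.996), Fcer1g and 3110043O21Rik. For Lipg they were the neutrophil genes Gpr27 (r = 0.999), Mrgpra2a and Asprv1, and for Soat2 they were Ptger2 (r = 0.980), Fxyd5 and Fam129a. The 7 points share libraries and depth, and Soat2 stayed under 10 CPM in each class.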

How the data were processed

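The authors deposited raw UMI counts, as 1 matrix of genes by barcodes for each library. The submitters' processing notes name Cell Ranger 2.2.0, Seurat and the builds mm10 and GRCm38, and the roles of each are not given in the sources used here. Receptor libraries were not used here. Barcodes needed 200 or more genes and a mitochondrial share of 10% or less, and the highest Scrublet scores (scanpy 1.11.5) were removed at 0.8% per 1000 barcodes. A gate needed 3 of 6 markers and a lead of 0.3 in the share of markers seen. Counts were summed per library and class, with at least 40 cells in every library (20 for subsets and for the added neutrophils and classical monocytes). The sums were tested with edgeR 4.0.16 (quasi-likelihood, filterByExpr, TMM), comparing HI with naive, and p-values, 2-sided, were adjusted by Benjamini-Hochberg over all genes of a class at 0.05. Class and subset tests had a term per library, so both sides share libraries. DESeq2 1.42.0 was an alternative. The SE is the absolute log2 change divided by the square root of F. Exact intervals are Clopper-Pearson at 95%, and the floor for a count of 0 is 3 counts. With 2 against 2 libraries an exact permutation test cannot go below p = 0.33. The design text speaks of 2 runs, both with an HI and a naive pool, but no label ties a library to a run. The labels do not say that pools within a group are independent beyond holding different pups, so p-values measure the spread between these libraries, and run is part of it.

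The members, lists, gates and tests were chosen with earlier results of these data known. Named genes are the 9 members, up to 4 genes each way of each pathway list in macrophages and microglia, the 3 genes most like each member (mean CPM of at least 10 in a class), and C1qa, C1qb and Tyrobp as comparators. Of 4 fixed Gpnmb-program markers, 3 had rows in the matrices, and Clec7a was not analysed here. Genes that overlap or lie close can share reads in ways these counts do not show. The alternatives tried were other normalizations, no filter on low counts, each library left out and the replicate block. Further ones were a gate of 4 markers, doublets kept and cells with other RNA, as defined above, left out. Those added after seeing the data were the 2 small classes, microglia without Gpnmb-program cells, the depth limit and non-classical monocytes without the naive 1 cell with most Lpl.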

Additional observations from a re-analysis of the deposited data

Results flagged for a closer look

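Differences in the HI response between classes passed the interaction test of edgeR for 5 pairs of a member and a comparison, with the difference given on the log2 scale. The signed change of Apoe in border-associated macrophages (-0.06) lay 0.33 above that in microglia (-0.37), where Apoe fell. That of Abcg1 in macrophages lay 0.81 above that in microglia and 0.95 above that in non-classical monocytes. That of Lpl lay 1.15 higher in macrophages and 0.91 higher in microglia than in non-classical monocytes. The 2 Lpl differences fell to 0.27 and 0.68 without HI 1, whose macrophages and microglia held the highest Lpl level of the 4 libraries, and to 0.75 and 0.49 without the single naive 1 monocyte that held 65 of 139 Lpl UMIs, where the difference for microglia missed the threshold (adjusted p = 0.384). Without naive 1, Abcg1 missed the threshold in both comparisons (adjusted p = 0.494 and 0.135), as did Apoe (adjusted p = 0.658). The cause of these differences was not tested.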

How the results depend on the processing

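With 2 libraries a group, the number of calls moved more with the setting than most member values did. Of member and named-gene values for HI against naive under the alternatives, 465 kept their direction and side of the threshold, 24 newly passed, 34 no longer passed and 26 changed sign.

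Counts of genes called for HI against naive were as follows. In border-associated macrophages 534 genes and 2 members became 1808 and 5 with no filter and 0 members without cells with other RNA, with 1 member by DESeq2, and leaving out a library gave 63 to 1532 genes and 0 to 4 members. In microglia 89 genes and 1 member became 740 and 4 with no filter and 158 and 0 without Gpnmb-program cells, and leaving out a library gave 1 to 1481 genes and 0 to 5 members. In non-classical monocytes 137 genes and 0 members became 55 genes by DESeq2, 275 genes and 1 member with no filter and 1 member with doublets kept, and leaving out a library gave 126 to 256 genes and 0 to 1 members. In Lyve1 positive macrophages 552 genes and 2 members became 1979 and 6 with no filter, 1 member by DESeq2 and 1 without cells with other RNA, and leaving out a library gave 235 to 1773 genes and 0 to 4 members. In Lyve1 negative macrophages 37 genes became 172 with no filter and 13 without cells with other RNA, and leaving out a library gave 1 to 204 genes and 0 to 2 members. In neutrophils 0 genes became 38 by DESeq2, 1 without TMM, 154 with no filter (3 members) and 1 with doublets kept, and leaving out a library gave 3 to 102 genes and 0 to 1 members. In classical monocytes 14 genes became 236 with no filter and 30 with a gate of 4 markers, and leaving out a library gave 18 to 100 genes and 1 to 2 members.

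For the differences in response, 125 genes between macrophages and microglia became 54 with a gate of 4 markers and 58 (1 member) without cells with other RNA, and 1 to 669 genes and 0 to 5 members on leaving out a library. Between macrophages and non-classical monocytes 258 genes became 90 to 184, and 2 members 0 to 2. Between microglia and non-classical monocytes 43 genes became 25 without cells with other RNA, where 0 members passed, as with a gate of 4 markers and without the naive 1 monocyte with most Lpl, and 30 to 165 genes and 0 to 2 members on leaving out a library. Within the depth limit, 1022 genes and 6 members for Lyve1 became 429 and 1, and 3853 genes for the Gpnmb program became 1970.

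The replicate block used the replicate numbers of the labels, which are not tied to a run. Same-numbered libraries deviated together with r = 0.431 in macrophages, 0.311 in microglia and -0.0148 in non-classical monocytes, so with 2 pairs the numbers are not shown to pair the libraries. With the block, 2000 genes and 4 members were called in macrophages (Abcg1, Soat2 and Soat1 higher, Pltp lower), 1138 and 4 in microglia, 398 and 1 in non-classical monocytes, 2185 and 4 in Lyve1 positive macrophages and 60 genes in classical monocytes.

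Signs changed mostly for values near 0. Abcg1 in microglia was 0.038 without Gpnmb-program cells, Apoe in non-classical monocytes -0.013 with no filter and -0.075 with doublets kept, and Soat1 in neutrophils -0.12 without TMM. With no filter Lpl between macrophages and non-classical monocytes was 0.0052 and Soat1 between microglia and those monocytes 0.035. Within the depth limit Apoe by Lyve1 was -0.025 and Lpl in dividing cells -0.19. On leaving out a library, the log2 change in macrophages ran from -0.026 to 0.14 for Abca1, from -0.079 to 0.050 for Plin2, from -0.16 to 0.053 for Apoe and from -0.87 to 1.49 for Lpl. In microglia it ran from -0.18 to 0.21 for Soat1, from -0.10 to 0.31 for Plin2 and from -0.45 to 0.84 for Lpl. In non-classical monocytes it ran from -0.47 to 0.20 for Pltp, from -0.21 to 0.056 for Plin2 and from -0.19 to 0.17 for Apoe. It ran from -0.033 to 0.64 for Abcg1 in Lyve1 negative cells and from -0.33 to 0.17 for Plin2 in neutrophils. In classical monocytes it ran from -0.34 to 0.77 for Soat1, from -0.55 to 1.91 for Abca1 and from -0.97 to 0.32 for Apoe. The cause was not tested for these changes. Depth limits Soat2, Lipg and Abcg1 in neutrophils, where a library held 0 to 24 UMIs of Soat2, 0 to 54 of Lipg and 3 to 6 of Abcg1.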

Other observations

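Sorl1 was far more abundant in cells of the blood lineages than in the macrophages where it rose. Non-classical monocytes held 186 to 217 CPM of Sorl1 and neutrophils 164 to 209 CPM, against 0.833 to 2.60 CPM in border-associated macrophages. Microglia lay between them, at 7.84 and 7.22 CPM in the naive libraries and 11.4 and 13.7 CPM in the HI libraries (log2 change 0.72; adjusted p = 0.101). Msr1 in microglia was at 4.37 and 3.18 CPM in the naive libraries, 24.0 CPM in HI 1 and 6.16 CPM in HI 2, so HI 1 stood apart there as it did for Lpl. G0s2 was strongest in neutrophils, at 348, 220, 711 and 333 CPM.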
